A study of Homo sapiens with 95 samples.

Results

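The response to cigarette smoke condensate (CSC) was measured in AALE cells that overexpressed NFE2L2, the gene of the transcription factor NRF2. AALE is an immortalized line of human bronchial epithelial cells. The comparison set 3 wells of NRF2 cells exposed to CSC at 24 µg/ml against 3 wells of the same population exposed to the vehicle DMSO. These 6 wells of 95 in the series were chosen by their titles alone, with no measured value. As control population, HcRed cells carried an empty-vector reporter in place of NFE2L2, and 3 wells of them had CSC and 3 had DMSO. A further 3 wells of NRF2 cells had benzo[a]pyrene (BaP) at 173 µM and 3 had the tobacco nitrosamine NNK at 490 µM. Exposure time and the promoter that drove the transgene are not given in the sources used here. Expression was measured by 3′ digital gene expression (3′DGE), in which each well carries a barcode and each captured molecule a unique molecular identifier (UMI), so a count stands for a molecule and not for a read. DMSO and CSC wells lay in different plate rows in each population, as did the BaP and NNK wells, and HcRed and NRF2 wells given the same chemical lay in different rows too, so neither the chemical nor the population can be told apart from the row in any comparison below. The study calls its replicates biological, but the sources used here do not say whether the wells came from separate cultures. The p-values concern these wells only. Their spread is taken mostly from variance shared across genes, so a gene can be called although its own wells overlap.

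NRF2 is held at a low level by KEAP1, an adaptor that marks it for degradation. Electrophiles and oxidants release it from KEAP1, and it then binds antioxidant response elements in genes for iron storage, quinone reduction, thioredoxin and glutathione. Smoke also holds polycyclic aromatic hydrocarbons, ligands of the aryl hydrocarbon receptor (AHR), which with its partner ARNT binds xenobiotic response elements in genes such as CYP1A1 and CYP1B1. In the bronchial wall, KRT5 and KRT14 mark the basal cells from which the other epithelial cells are renewed.

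Both kinds of element are short, and 3 promoters are printed to show where they lay in genes that rose below. The 250 bases before the transcription start of each gene came from RefSeq on GRCh38.p14, read 5′ to 3′ on the strand of the gene. They cover chr15:74725529-74725778 on the minus strand for CYP1A1, chr12:104286782-104287031 on the plus strand for TXNRD1 and chr14:64942746-64942995 on the minus strand for GPX2. Capitals mark the core xenobiotic response element (GCGTG or its reverse complement CACGC) in CYP1A1 and the core antioxidant response element (TGACNNNGC or its reverse complement GCNNNGTCA) in TXNRD1 and GPX2.
CYP1A1: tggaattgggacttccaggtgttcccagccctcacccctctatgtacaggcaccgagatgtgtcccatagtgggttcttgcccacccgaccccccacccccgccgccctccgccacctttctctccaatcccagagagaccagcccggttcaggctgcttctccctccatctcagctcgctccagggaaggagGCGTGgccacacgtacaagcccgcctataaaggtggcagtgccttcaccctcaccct
TXNRD1: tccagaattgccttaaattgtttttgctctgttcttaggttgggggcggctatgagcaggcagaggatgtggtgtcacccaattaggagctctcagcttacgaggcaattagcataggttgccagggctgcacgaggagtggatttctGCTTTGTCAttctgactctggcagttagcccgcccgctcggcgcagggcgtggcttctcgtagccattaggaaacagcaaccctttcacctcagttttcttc
GPX2: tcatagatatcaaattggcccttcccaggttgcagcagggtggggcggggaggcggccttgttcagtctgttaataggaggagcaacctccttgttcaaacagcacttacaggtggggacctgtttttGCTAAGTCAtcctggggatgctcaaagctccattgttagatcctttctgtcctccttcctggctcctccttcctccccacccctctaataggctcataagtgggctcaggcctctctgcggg
The marked element began at base -57 from the start in CYP1A1, -102 in TXNRD1 and -122 in GPX2. From 250 bases before to 50 after the start, the antioxidant element was present in 13.4% of the 27305 promoters of the table and in 14.9% of the 8346 tested genes that had a promoter there. It was present in 4 of the 11 matched genes of the NRF2 lists that passed the test below, with PIR and MGST1 holding theirs 27 and 31 bases after the start. The xenobiotic element was found in 35.7% of all promoters and 50.7% of those of tested genes, and in 3 of 6 matched AHR battery genes that passed the test. The match is of letters in this window only, and CYP1B1 and FTH1 had no entry in the table.

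The 6 wells had total counts from 1270748 to 1469805 and detected from 49.95% to 51.2% of the 23895 listed genes. Levels are given as CPM, a gene's count relative to the total of its well after scaling by the trimmed mean of M-values (TMM). NFE2L2 (GRCh37 chromosome 2, 178083395 to 178257484) checked the label. Under DMSO it stood at 158, 142 and 170 CPM in NRF2 cells and at 36.2, 43.1 and 51.0 CPM in HcRed cells. The NRF2 wells lay above every HcRed well, by 1.84 on the log2 scale in the limma fit (SE 0.135, adjusted p = 8.77e-19). The epithelial markers KRT5, KRT14, KRT17, TP63, EPCAM and CDH1 were detected in each of the 6 wells. Of 15 markers of fibroblasts, endothelium, leukocytes and blood, 10 had no count in any of them, among them COL1A2, VWF, PTPRC and HBB. The summed level of these 15 markers ran from 19.7 to 20.5 CPM of the unscaled total in DMSO wells and from 39.9 to 41 in CSC wells, and the rise lay mainly in CD68, a lysosomal protein gene. Its part in the results below was not tested.

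CSC changed 182 of 11236 genes tested in NRF2 cells, 1.62%, with 64 higher (0.57%) and 118 lower (1.05%), and 1099 genes had an unadjusted p under 0.05. The largest rises were in the cytochrome P450 genes CYP1A1 and CYP1B1, and the rises with the smallest p were in the ferritin chains FTL and FTH1. Caveolin 1 (CAV1), keratins KRT14 and KRT19 and genes of mitosis fell, as did 48 ribosomal protein genes by small amounts. Among the called genes, 24 were higher and 6 lower by at least 2-fold. The 3 CSC wells did not overlap the 3 DMSO wells for 174 of the 182 genes, against 14.9% of all genes tested. The calls were made on these same wells, so this separation is no separate evidence for them. The median log2 fold change of all genes was 0.00. Scaled by library totals instead of TMM, 89 of 184 calls were higher, 48.4% against 35.2%. A fit of all groups of the series together called 54 genes, 38 of them higher. Each library was a whole well, so fewer cells of a kind and less RNA per cell cannot be told apart for any gene below.

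**Figure D1:**
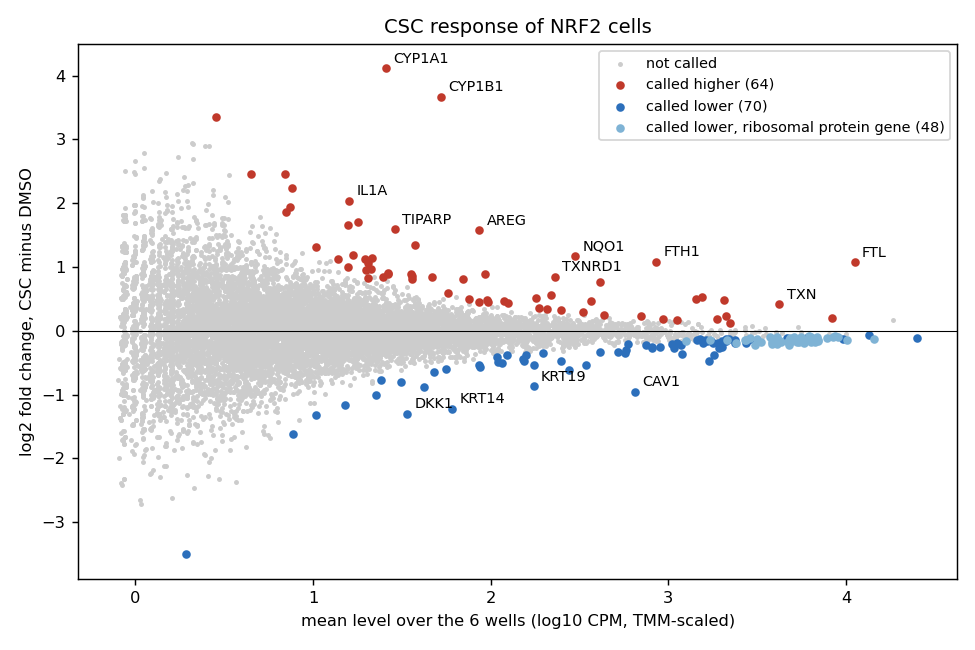
Log2 fold change of CSC against DMSO in NRF2 cells (vertical axis) plotted against the mean level over the 6 wells in log10 CPM (horizontal axis), 1 point per gene tested. Red points are the 64 genes called higher, dark blue the 70 other genes called lower and light blue the 48 ribosomal protein genes called lower, which lie close under 0 at high levels.

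Both genes of the iron storage protein rose to about the same degree. FTL and FTH1 encode the light and heavy chains of ferritin, the shell that stores iron. FTL (GRCh37 chromosome 19, 49468566 to 49470136) stood at 7312, 7066 and 7181 CPM in the DMSO wells and at 14866, 14993 and 15534 CPM in the CSC wells. Every CSC well lay far above every DMSO well. The limma fit put the change at 1.08 on the log2 scale (SE 0.01, 95% confidence interval 1.05 to 1.11, adjusted p = 1.29e-54), a fold change of 2.11. FTH1 (chromosome 11, 61727190 to 61735106) stood at 547, 594 and 508 CPM under DMSO and at 1177, 1158 and 1148 CPM under CSC. It rose by 1.08 (SE 0.05, adjusted p = 4.92e-24), and its wells were again apart. Of the 5 heme and iron genes tested, these were the 2 called, all 5 values lay above 0 and the list's median was 0.44. HMOX1, which degrades heme, had at most 2 counts in a well and was not tested. TFRC, the transferrin receptor, which imports iron and is not in that list, also rose, from 45.6, 50.3 and 40.7 to 71.6, 73.8 and 61.1 CPM (log2 0.59, SE 0.15, adjusted p = 0.0127). It was picked after its values were seen.

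Enzymes that reduce or conjugate quinones and carbonyls rose in 6 of 17 tested, and none fell. The median log2 fold change of the list was 0.48. NQO1, which reduces quinones with both electrons at once, stood at 176, 201 and 174 CPM under DMSO and at 394, 423 and 425 CPM under CSC. All 3 CSC wells lay above the DMSO wells, by 1.17 on the log2 scale (SE 0.08, adjusted p = 9.92e-18). AKR1C3, an aldo-keto reductase that acts on steroids and carbonyls, went from 21.6, 18.3 and 22.5 CPM to 65.6, 43.3 and 53.1 CPM. The change was 1.35 on the log2 scale (SE 0.19, adjusted p = 8.56e-07), and the CSC wells spread more than those of NQO1. Smaller rises with wells apart were those of GSTM3, a glutathione transferase, at 0.56 (SE 0.09), of MGST1, its membrane-bound relative, at 0.48 (SE 0.03), and of PTGR1, a reductase of prostaglandins and alkenals, at 0.46 (SE 0.07). AKR1C2 rose by 0.97 (SE 0.23, adjusted p = 0.00892), a call lost without DMSO replicate 2 (0.82, adjusted p = 0.166) or without CSC replicate 1 (0.87, adjusted p = 0.0602). Its near-identical neighbour AKR1C1 was not called, at 0.72 (SE 0.32, adjusted p = 0.432), nor was AKR1B10, at 0.52 (SE 0.24, adjusted p = 0.446). Counts of the AKR1C genes are uncertain, since reads can be split among them.

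The thioredoxin system keeps protein thiols and peroxiredoxins reduced. In the NRF2 list of thioredoxin and peroxide reduction genes, 4 of 10 tested rose, with none lower and a median of 0.48. TXNRD1, the reductase of thioredoxin, whose promoter is printed above, stood at 172, 161 and 157 CPM under DMSO and at 275, 322 and 283 CPM under CSC. The groups were well apart (log2 0.84, SE 0.09, adjusted p = 4.4e-11). TXN, thioredoxin itself, went from 3590, 3494 and 3756 to 4756, 4910 and 4750 CPM, a smaller change of 0.41 with a close spread (SE 0.02, adjusted p = 1.11e-21). PIR, an iron-binding nuclear protein that the list also holds, rose by 0.89 (SE 0.12, adjusted p = 2.48e-07). PRDX1, a peroxiredoxin, rose by 0.18 (SE 0.04, adjusted p = 0.00059). SRXN1, which restores overoxidized peroxiredoxins, was not called, at 12.8, 14.3 and 16.7 CPM under DMSO and 18.1, 23.9 and 10.9 CPM under CSC.

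Glutathione genes were less clear. Among 12 tested, GPX2 alone was called, and the median was 0.24. GPX2, a glutathione peroxidase of epithelia whose promoter is printed above, stood at 16, 23.1 and 13.8 CPM under DMSO and at 35.4, 26.9 and 32.7 CPM under CSC. The wells were apart (log2 0.84, SE 0.22, adjusted p = 0.0218). That call was lost without CSC replicate 1 (0.77), CSC replicate 3 (0.82), DMSO replicate 1 (0.79) or DMSO replicate 3 (0.68). Both subunits of the enzyme that limits glutathione synthesis had overlapping wells and were not called, the catalytic GCLC at 0.75 (SE 0.26, adjusted p = 0.165) and the modifier GCLM at 0.30 (SE 0.31, adjusted p = 0.829). SLC7A11, the cystine importer, had wells apart, at 16, 24.5 and 27.6 CPM against 34.7, 38 and 32.7 CPM, but did not pass the threshold (log2 0.64, SE 0.20, adjusted p = 0.107).

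None of the 9 regulators of NRF2 tested was called, and their median was 0.14. NFE2L2 stood at 156, 139 and 168 CPM under DMSO and at 152, 136 and 163 CPM under CSC. The wells overlapped (log2 -0.03, SE 0.10, 95% confidence interval -0.23 to 0.16, adjusted p = 0.959), and these counts include those of the transgene where it holds the measured end of the transcript. KEAP1 had 2.91 to 6.39 CPM under DMSO and 4.36 to 6.71 CPM under CSC (log2 0.33, SE 0.43, adjusted p = 0.869).

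The AHR battery, a list of genes that AHR and ARNT induce, held the largest changes, with 7 of 13 higher and none lower. Regulators are also in the list, among them AHR and NFE2L2, the gene overexpressed here. Its median of 1.17 was the value of NQO1, which the quinone list counts too. CYP1A1 (GRCh37 chromosome 15, 75011883 to 75017877) oxidizes polycyclic hydrocarbons. It stood at 2.4, 2.72 and 2.18 CPM under DMSO and at 58.8, 35.1 and 53.8 CPM under CSC. The lowest CSC well was far above the highest DMSO well, with a fitted fold change of 17.3 (log2 4.11, SE 0.45, 95% confidence interval 3.22 to 5.01, adjusted p = 4.17e-10). CYP1B1 (chromosome 2, 38294116 to 38337044), a related hydroxylase, went from 8.79, 9.51 and 4.36 to 116, 76.1 and 98.2 CPM. That is a fold change of 12.7 (log2 3.67, SE 0.29, adjusted p = 5.05e-15), and CSC replicate 2 was the lowest CSC well for both genes. TIPARP, an ADP-ribosyltransferase that represses AHR, went from 16, 14.3 and 12.3 to 46, 39.5 and 44.4 CPM (log2 1.59, SE 0.22, adjusted p = 1.88e-07).

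The rest of the battery was mixed. ALDH1A3, which makes retinoic acid, rose by 0.86 (SE 0.19, adjusted p = 0.00212), a call lost without DMSO replicate 3 (0.68, adjusted p = 0.0756). SERPINB2, a plasminogen activator inhibitor, stood at 1.6, 2.04 and 5.81 CPM under DMSO and at 12.1, 10.4 and 12.4 CPM under CSC. The fitted rise was 1.94 (SE 0.44, adjusted p = 0.00477), and the call was lost without DMSO replicate 1 (1.66, adjusted p = 0.0659) or DMSO replicate 2 (1.73, adjusted p = 0.103). NQO1 and the cytokine IL1B complete the 7. AHR itself was at 11.2, 8.15 and 10.9 CPM under DMSO and at 9.8, 3.73 and 4.36 CPM under CSC, which was not called (log2 -0.82, SE 0.37, adjusted p = 0.428). ARNT was at 0.26 (SE 0.30, adjusted p = 0.854) and CYP1A2, the liver form, at -0.40 (adjusted p = 0.918). AHRR, the repressor of AHR, was too low to be tested, with at most 2 counts in a well.

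Both forms of interleukin 1, the EGF receptor ligand AREG and the immediate early genes EGR1 and IER3 rose. Of 6 inflammatory mediators tested 2 rose, and the median was 1.21. The other 17 of the 23 listed, among them IL6, CXCL8 and TNF, were too low to be tested. IL1A went from 7.19, 4.08 and 7.26 to 25.6, 20.1 and 31.3 CPM (log2 2.04, SE 0.32, adjusted p = 5.66e-06). IL1B went from 12.8, 4.76 and 6.54 to 24.1, 21.6 and 24.7 CPM (log2 1.66, SE 0.30, adjusted p = 0.000119). For both cytokines every CSC well lay above every DMSO well, by a margin wider than the DMSO range. Among 14 immediate early genes 2 rose and 13 of 14 values lay above 0, with a median of 0.97. EGR1, a zinc finger factor induced within minutes of growth signals, rose by 1.71 (SE 0.30, adjusted p = 5.84e-05) and IER3, a stress-induced survival protein, by 2.46 (SE 0.53, adjusted p = 0.00224). FOS at 0.81 (adjusted p = 0.547), JUN at 0.73 (adjusted p = 0.731) and DUSP1 at 0.69 (adjusted p = 0.0615) were not called. AREG, picked after its values were seen, went from 48.8, 37.4 and 43.6 to 125, 147 and 114 CPM (log2 1.57, SE 0.14, adjusted p = 4.55e-13).

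Single genes outside these groups rose as well. ABCA1, the cholesterol exporter, went from 2.4, 2.72 and 2.18 to 12.1, 12.7 and 13.8 CPM (log2 2.24, SE 0.45, adjusted p = 0.000638). TIMP1, an inhibitor of matrix metalloproteinases, went from 1338, 1215 and 1265 to 1797, 1961 and 1724 CPM (log2 0.52, SE 0.04, adjusted p = 5.05e-15). S100A6, a calcium-binding protein, rose by 0.20 (SE 0.01, adjusted p = 1.23e-16). All 3 genes had their CSC wells above their DMSO wells.

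**Figure D2:**
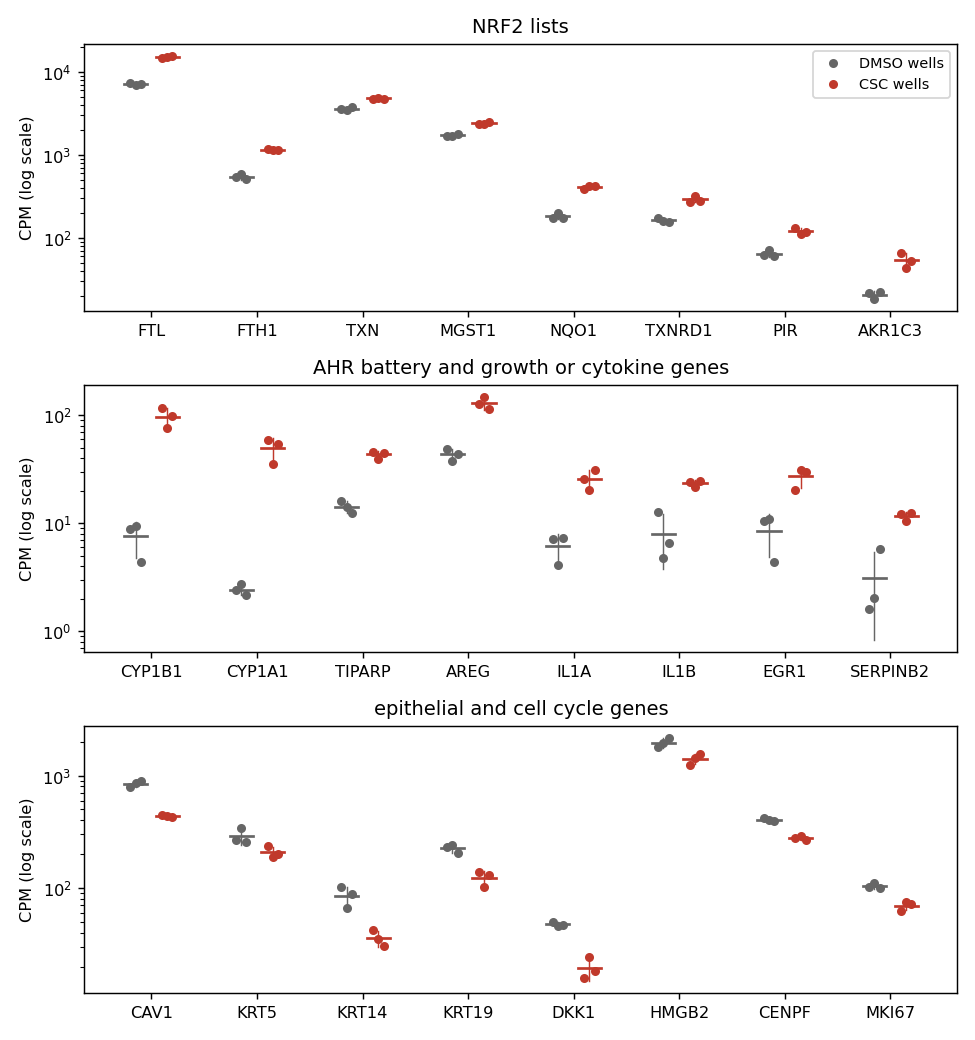
CPM on a log scale (vertical axes) in each of the 3 DMSO wells (grey) and 3 CSC wells (red) of NRF2 cells for 24 genes, in 3 panels of 8, where horizontal bars are means and vertical bars the SD. Red points lie above grey points for each gene of the upper panels and below them in the lowest panel, where KRT5 shows the closest groups.

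Membrane and keratin genes of the epithelium fell in part. CAV1 (GRCh37 chromosome 7, 116165048 to 116201233), the coat protein of caveolae, stood at 795, 855 and 898 CPM under DMSO and at 450, 440 and 426 CPM under CSC. The CSC wells lay close together and below every DMSO well (log2 -0.95, SE 0.06, 95% confidence interval -1.07 to -0.84, adjusted p = 1.4e-19). It was the only one of 7 caveolar genes called, and the median was -0.23. CAV2, its partner, had wells apart, from 45.6 to 53 CPM against 36.5 to 42.9 CPM, but was not called (log2 -0.30, SE 0.16, adjusted p = 0.547).

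Of 23 basal cell genes 4 fell and none rose, at a median of -0.13. KRT14 (chromosome 17, 39738531 to 39743147) stood at 102, 66.6 and 88.6 CPM under DMSO and at 42.2, 35.1 and 30.5 CPM under CSC. Its wells were apart (log2 -1.22, SE 0.16, adjusted p = 1e-07). KRT5, which pairs with KRT14 in the basal filament, went from 268, 340 and 258 to 237, 188 and 199 CPM (log2 -0.47, SE 0.09, adjusted p = 0.000306). DMSO replicate 2 stood above the other DMSO wells, and without it the value was -0.34 and not called (adjusted p = 0.0735). DESeq2 did not call KRT5 either (adjusted p = 0.383). DST, a linker of keratin to hemidesmosomes, fell by 0.44 on the log2 scale (adjusted p = 0.00655), a call lost without CSC replicate 2 (-0.31) or DMSO replicate 1 (-0.37). S100A2, a calcium-binding protein of basal cells, fell by 0.14 (SE 0.02). KRT17, a keratin of injured epithelium, overlapped between groups, at 498, 452 and 399 CPM against 503, 414 and 411 CPM (log2 -0.02, SE 0.07, adjusted p = 0.962).

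Of 17 simple keratins and junction genes 2 fell, at a median of -0.17. KRT19, a keratin of simple epithelia, went from 230, 241 and 204 to 138, 102 and 130 CPM (log2 -0.87, SE 0.10, adjusted p = 1.69e-09), and DSP, the desmosomal plaque protein, from 251, 196 and 176 to 155, 136 and 132 CPM (log2 -0.54, SE 0.10, adjusted p = 0.000279). Both kept their groups apart. Among 15 squamous differentiation genes with a median of 0.30, CSTA, a protease inhibitor of the cornified envelope, fell by 0.35 (SE 0.06, adjusted p = 2.86e-05). S100P, a calcium-binding protein, rose by 0.89 (SE 0.19, adjusted p = 0.0022), a call lost without DMSO replicate 2 (0.73, adjusted p = 0.116).

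Secreted and matrix genes moved both ways. DKK1, a secreted inhibitor of Wnt signalling, stood at 50.4, 46.2 and 47.2 CPM under DMSO and at 15.8, 24.6 and 18.2 CPM under CSC. The wells were apart (log2 -1.30, SE 0.20, adjusted p = 2.91e-06). In the list of 22 matrix, integrin and YAP target genes, with a median of 0.05, TGFBI rose and SPARC fell. TGFBI, an extracellular protein that binds integrins, went from 152, 157 and 136 to 201, 212 and 223 CPM (log2 0.52, SE 0.09, adjusted p = 8.42e-05). SPARC, a collagen-binding glycoprotein, went from 122, 138 and 145 to 89.7, 91.7 and 105 CPM (log2 -0.50, SE 0.11, adjusted p = 0.00245). MFAP5, a microfibril protein, and SULT1E1, the estrogen sulfotransferase, were among the genes with the largest falls, at -1.16 (adjusted p = 0.0109) and -1.61 (adjusted p = 0.0202). MFAP5 was lost without DMSO replicate 2 (-1.04), CSC replicate 1 (-1.03) or CSC replicate 3 (adjusted p = 0.104), and SULT1E1 without any well other than DMSO replicate 3, at -1.36 without DMSO replicate 1 and -1.78 without CSC replicate 3. ALOX5AP, the activator of arachidonate 5-lipoxygenase, also named after its values were seen, was at 3.2, 4.76 and 3.63 CPM under DMSO and had no count in any CSC well, which puts it at least 1.71-fold lower when 3 counts per CSC well are taken as the limit.

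Of 32 cell cycle and replication genes tested 8 fell and none rose, 5 values lay above 0, and the median was -0.20. Scaled by library totals the median was -0.16 and 7 fell. HMGB2, a chromatin protein of dividing cells, went from 1787, 1930 and 2167 to 1254, 1443 and 1542 CPM (log2 -0.48, SE 0.05, adjusted p = 2.27e-11). CENPF, a kinetochore protein of late G2, went from 422, 399 and 397 to 277, 289 and 270 CPM (log2 -0.54, SE 0.07, adjusted p = 8.05e-08), and the proliferation marker MKI67 from 102, 110 and 99.5 to 62.6, 74.6 and 72.7 CPM (log2 -0.57, SE 0.12, adjusted p = 0.00195). The groups were apart for all 3, but MKI67 was not called by DESeq2 (adjusted p = 0.079) or in the fit over all groups (adjusted p = 0.385). TUBB, a tubulin, fell by 0.27 on the log2 scale (SE 0.04) and STMN1, which destabilizes microtubules, by 0.26 (SE 0.05). BIRC5, which acts in chromosome segregation, fell by 0.54 (adjusted p = 0.00408), a call lost without CSC replicate 3 (-0.48, adjusted p = 0.0538). CCNB1, the mitotic cyclin, at -0.21 and TUBA1B, an alpha tubulin, at -0.20 were called although their wells overlapped. Neither was called by DESeq2 (adjusted p = 0.9998 for both) or in the fit over all groups (adjusted p = 0.598 and 0.561). Under library totals CCNB1 was not called either (adjusted p = 0.1235). CCNB1 was not called without CSC replicate 1 (-0.11), CSC replicate 3 (-0.20) or any DMSO well (-0.24 to -0.16), and stood at -0.32 without CSC replicate 2.

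Ribosomal protein genes made up 48 of the 118 genes that fell, of 77 tested, and none rose. This list was drawn up by symbol after the results were seen, and such genes have many near-identical copies that make their counts uncertain. Their share of all counts was 31.6%, 31.5% and 31.7% in the DMSO wells and 30.1%, 29.3% and 30.1% in the CSC wells, so the groups did not overlap. The means differed by -1.79 percentage points (exact permutation test, two-sided p = 0.1, the smallest p that 3 against 3 wells allow). The median log2 fold change was -0.13, and 3 of 77 values lay above 0. RPL30, of the large subunit, had the smallest p, at 5081, 5143 and 5218 CPM under DMSO and 4558, 4302 and 4380 CPM under CSC (log2 -0.22, SE 0.02, adjusted p = 1.12e-12). RPL41 fell by 0.12 (SE 0.01) and RPS12 by 0.17 (SE 0.02). With edgeR 27 of them were lower, with DESeq2 25, and in the fit over all groups none, where the median was -0.14. NCL, nucleolin, a nucleolar protein of ribosome assembly, went from 1334, 1363 and 1296 to 1040, 1009 and 1064 CPM (log2 -0.36, SE 0.04, adjusted p = 4.34e-09). MALAT1, a nuclear non-coding RNA, was called at -0.11 (SE 0.01, adjusted p = 1.41e-09) although its wells overlapped, at 26522, 26789 and 25206 CPM against 24082, 23363 and 25294 CPM.

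Metallothioneins, cysteine-rich proteins that bind zinc and cadmium, fell in 2 of 8 tested, at a median of -0.25. MT1X went from 1982, 2031 and 2100 to 1491, 1656 and 1538 CPM (log2 -0.39, SE 0.04, adjusted p = 3.27e-12). MT1E fell by 0.20 (adjusted p = 0.000736), a call lost without DMSO replicate 2 (-0.15, adjusted p = 0.107). MT2A was not called, at 14860, 17465 and 19190 CPM against 16480, 23385 and 18955 CPM (log2 0.17, SE 0.05, adjusted p = 0.0544). The groups were apart for MT1X and overlapped for MT2A, and the members share long stretches of sequence, so their counts are uncertain.

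Stress pathways other than NRF2 and AHR showed few calls. No gene was called among 21 of the ATF4 and unfolded protein response (median 0.12), 16 p53 targets (0.13), 26 interferon-stimulated genes (0.03) and 28 of sterol and fatty acid synthesis (0.00). Heat shock genes had 2 of 13 lower at a median of -0.12, HSPA8 at -0.16 and HSP90AB1 at -0.15, and neither was called under library totals. edgeR did not call HSP90AB1 (adjusted p = 0.0567). DESeq2 (adjusted p = 0.9998 and 0.352) and the fit over all groups (adjusted p = 0.707 and 0.733) called neither HSPA8 nor HSP90AB1. Both were lost without CSC replicate 1 (-0.12 and -0.10) or DMSO replicate 2 (-0.17 and -0.11), and HSPA8 also without CSC replicate 3 (-0.12) or DMSO replicate 3 (-0.14), while it stood at -0.25 without CSC replicate 2. Of 26 actin cytoskeleton genes the 2 thymosins TMSB4X and TMSB10 were lower, at -0.14 and -0.07, with no such call by edgeR or DESeq2. TMSB4X was kept only without CSC replicate 1 (-0.15) among the fits that left out a well, where TMSB10 stood at -0.05. The proteasome had PSMA3 higher at 0.22 among 31 genes (median 0.11) and 7 higher under library totals, and PSMA3 was lost without DMSO replicate 1 (0.21) or DMSO replicate 2 (0.20). ENO1, of glycolysis, was the 1 call of 20 at 0.12 (median 0.08) and was lost without DMSO replicate 1 (0.12), DMSO replicate 2 (0.09) or CSC replicate 2 (0.10). Neither edgeR (adjusted p = 0.1985) nor DESeq2 (adjusted p = 0.251) called ENO1. The fit over all groups called neither ENO1 (adjusted p = 0.857) nor PSMA3 (adjusted p = 0.586). Of the ciliated and secretory airway markers 3 were tested and none called, 8 of 13 had no count in any of the 6 wells, and their sum ran from 55.8 to 59.1 CPM of the unscaled total under DMSO and from 48.3 to 63.2 under CSC.

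**Figure D3:**
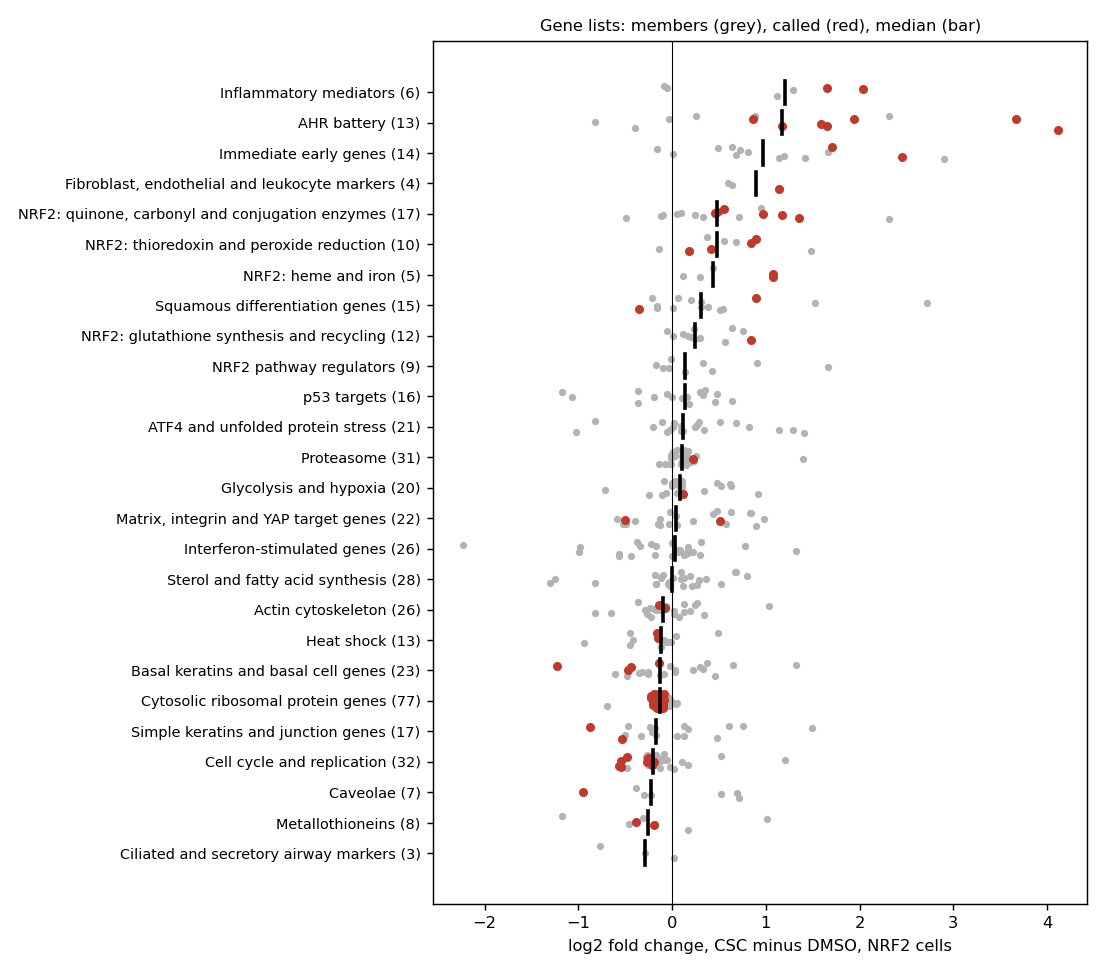
Log2 fold change of CSC against DMSO in NRF2 cells (horizontal axis) for each tested member of 26 gene lists, sorted by median, with called genes in red, other members in grey and a black bar at the median. The number tested stands in brackets, the AHR battery and NRF2 enzyme lists lie to the right of 0, and the ribosomal protein list forms a tight group at -0.13.

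The same contrast was fitted in HcRed cells, in wells of their own, to set the responses of both populations side by side. There 115 of 11043 genes were called, 1.04%, with 78 higher (0.706%) and 37 lower (0.335%), and under library totals 72 of 161 were higher. Of the 182 genes called in NRF2 cells, 152 had the same sign in HcRed cells and 58 were called there in that direction, which is 31.9% of the 182 and 50.4% of the 115. By direction, 61 of 64 higher genes and 91 of 118 lower genes kept their sign. The share of all tested genes with the same sign is not given here, so these counts have no background beside them. CYP1A1 rose by 3.46 (SE 0.49) in HcRed cells against 4.11 in NRF2 cells, NQO1 by 1.16 (SE 0.08) against 1.17, TXNRD1 by 0.85 (SE 0.10) against 0.84 and AREG by 1.67 (SE 0.12) against 1.57. None of these 4 pairs differed past the threshold, with interaction values of 0.65 (SE 0.68), 0.01 (SE 0.12), -0.01 (SE 0.14) and -0.09 (SE 0.19). SRXN1 and AKR1C1, not called in NRF2 cells, were called in HcRed cells at 1.30 (adjusted p = 0.0138) and 1.51 (adjusted p = 0.00286). GPX2 rose there by 1.68 (adjusted p = 1.53e-08). Their interaction values of -1.10 (SE 0.42), -0.79 (SE 0.46) and -0.83 (SE 0.30) were not called. GCLC lay the other way at 0.60 (SE 0.35), also not called. The median difference was 0.13 in the glutathione list, -0.03 in the quinone list and -0.08 in the thioredoxin list. The NRF2 thioredoxin list had 6 of 10 higher in HcRed cells, the quinone list 6 of 18, the AHR battery 6 of 13 and cell cycle genes 5 of 32 lower.

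For FTL the populations did not overlap under either exposure. It stood at 4538, 4240 and 4582 CPM in HcRed DMSO wells, below the 7066 to 7312 CPM of NRF2 DMSO wells, and rose to 10803, 10131 and 10820 CPM under CSC. Its rise of 1.24 (SE 0.02) exceeded the 1.08 of NRF2 cells, while the level under CSC stayed lower than in every NRF2 CSC well. FTH1 stood at 462, 487 and 482 CPM and rose to 796, 816 and 759 CPM in HcRed cells (log2 0.73, SE 0.06). Levels in the populations were scaled in separate sets of 6 wells.

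A direct test of the difference between the responses called 26 of 11257 genes, 0.231%, with 2 higher in NRF2 cells (0.0178%) and 24 lower (0.213%), and 16 of the 26 were ribosomal protein genes. FTH1 rose more in NRF2 cells by 0.35 (SE 0.08, adjusted p = 0.0311), while FTL rose less by a difference of -0.17 (SE 0.03, adjusted p = 0.00211). The FTH1 difference was not called by edgeR, by DESeq2 or in the fit over all groups. The FTL difference was not called by edgeR or DESeq2 or without a filter on low counts (-0.17, adjusted p = 0.168), and under library totals it was -0.09 (adjusted p = 0.359). TGFBI, which rose in NRF2 cells, was at -0.22 (SE 0.10, adjusted p = 0.472) in HcRed cells, from 161, 168 and 161 CPM under DMSO to 150, 141 and 133 CPM under CSC. MT1X went the other way, with 1787, 1795 and 2024 CPM under DMSO and 1883, 2180 and 2109 CPM under CSC in HcRed cells (log2 0.16, SE 0.04, adjusted p = 0.0279). MTAP, an enzyme of methionine salvage named after its values were seen, fell in NRF2 cells from 135, 132 and 121 to 83.7, 97 and 93.8 CPM. It was at 0.31 in HcRed cells, a difference of -0.81 (SE 0.16, adjusted p = 0.00304). DESeq2 and the fit over all groups did not call the MTAP difference. Of the ribosomal protein genes edgeR and DESeq2 called none for the difference and library totals 2, under which their median difference went from -0.11 to -0.03 and that of all genes from 0.01 to 0.08. In HcRed cells alone 3 ribosomal protein genes were called lower, and 25 under library totals. These calls depended on the fit, since edgeR called 6 genes, DESeq2 3 and the fit over all groups 0, with 505 at an unadjusted p under 0.05 in the last. Leaving out HcRed DMSO replicate 1 gave 49 calls and leaving out HcRed DMSO replicate 3 gave 41, against 16 without NRF2 DMSO replicate 3 or NRF2 CSC replicate 2.

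**Figure D4:**
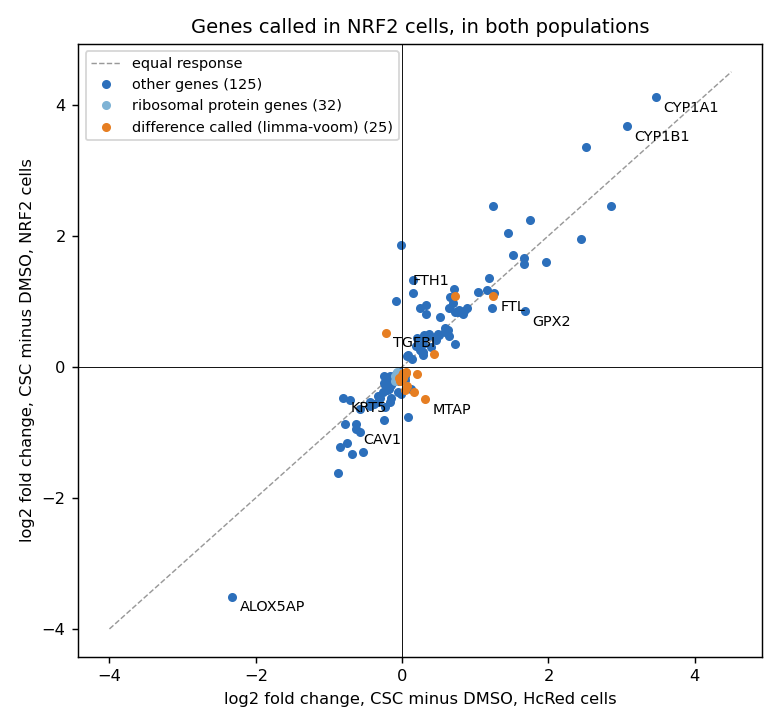
Log2 fold change of CSC against DMSO in NRF2 cells (vertical axis) against that in HcRed cells (horizontal axis) for the 182 genes called in NRF2 cells, with a dashed line where both are equal. Orange points are the 25 of them whose difference was called, light blue the other ribosomal protein genes, and most of the 64 higher genes lie in the upper right.

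CSC was last compared with BaP, a single polycyclic hydrocarbon, in the same cells. The doses are of different agents, so equal effects were not built in, and the CSC wells are those used above. Of 11156 genes 168 were called, 1.51%, with 27 higher under CSC (0.242%) and 141 lower (1.26%), 51 of them ribosomal protein genes. Scaled by library totals 102 were called, 50 of them higher. Without CSC replicate 3 there were 102 calls, without BaP replicate 2 there were 96 and without BaP replicate 3 there were 99.

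Ferritin split between its chains in that comparison. In a common scaling of 12 NRF2 wells, FTL stood at 14462 to 15103 CPM under CSC, 14586 to 14863 CPM under BaP and 8180 to 8636 CPM under NNK, against 6899 to 7116 CPM under DMSO. CSC and BaP wells overlapped, with a log2 difference of -0.00 and a 95% confidence interval of -0.02 to 0.02. FTH1 stood at 1145, 1127 and 1116 CPM under CSC, at 769, 736 and 807 CPM under BaP and at 498, 494 and 486 CPM under NNK. The FTH1 level under CSC was higher than under BaP by 0.55 (SE 0.05, adjusted p = 6.2e-11), with no overlap of wells. TFRC was higher under CSC by 0.75 (SE 0.15, adjusted p = 0.00176), and SLC7A11 by 1.09 (SE 0.22, adjusted p = 0.00142).

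No AHR battery gene was called between CSC and BaP. CYP1A1 was at 57.2, 34.1 and 52.3 CPM under CSC, 45.5, 64.8 and 73.9 CPM under BaP and 8.45, 11.1 and 11.7 CPM under NNK. The difference of CSC from BaP was -0.36 (95% confidence interval -0.71 to -0.01, adjusted p = 0.468). CYP1B1 differed by 0.48 (0.19 to 0.77, adjusted p = 0.0899) and TIPARP by 0.04 (-0.29 to 0.37, adjusted p = 0.96). These intervals are not adjusted for the number of genes. They excluded 0 for CYP1A1 and CYP1B1, in opposite directions, and held 0 for TIPARP. TIMP1, on the other hand, was higher under CSC by 0.46 (SE 0.04, adjusted p = 1.87e-10), at 1748, 1907 and 1676 CPM against 1328, 1289 and 1245 CPM. SCD, which desaturates fatty acids, was also higher under CSC by 0.62 (SE 0.08, adjusted p = 4.28e-07), with 352, 309 and 362 CPM against 220, 224 and 221 CPM and 351, 413 and 387 CPM under DMSO.

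CAV1, KRT14 and DKK1, which fell under CSC, were not called between CSC and BaP. CAV1 was at 438, 428 and 414 CPM under CSC and 458, 481 and 445 CPM under BaP, so every CSC well lay below every BaP well, with a difference of -0.11 (95% confidence interval -0.24 to 0.02, adjusted p = 0.578). KRT14 differed by -0.16 (-0.53 to 0.20, adjusted p = 0.817) and DKK1 by -0.17 (-0.64 to 0.29, adjusted p = 0.853). KRT19 was lower under CSC than under BaP (log2 -0.42, SE 0.11, adjusted p = 0.0232), and so was HMGB2 (log2 -0.36, SE 0.05, adjusted p = 4.4e-07). TXNIP, an inhibitor of thioredoxin and of glucose uptake, lay on either side of its DMSO wells, with 35.9, 35.6 and 37.5 CPM under CSC, 70.9, 85.3 and 79.5 CPM under BaP and 54.4, 67.0 and 50.3 CPM under DMSO. The difference of CSC from BaP was -1.10 (SE 0.15, adjusted p = 1.34e-06), with no overlap of wells. TFRC, SLC7A11, KRT19, HMGB2 and TXNIP were picked for this comparison after their values were seen.

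**Figure D5:**
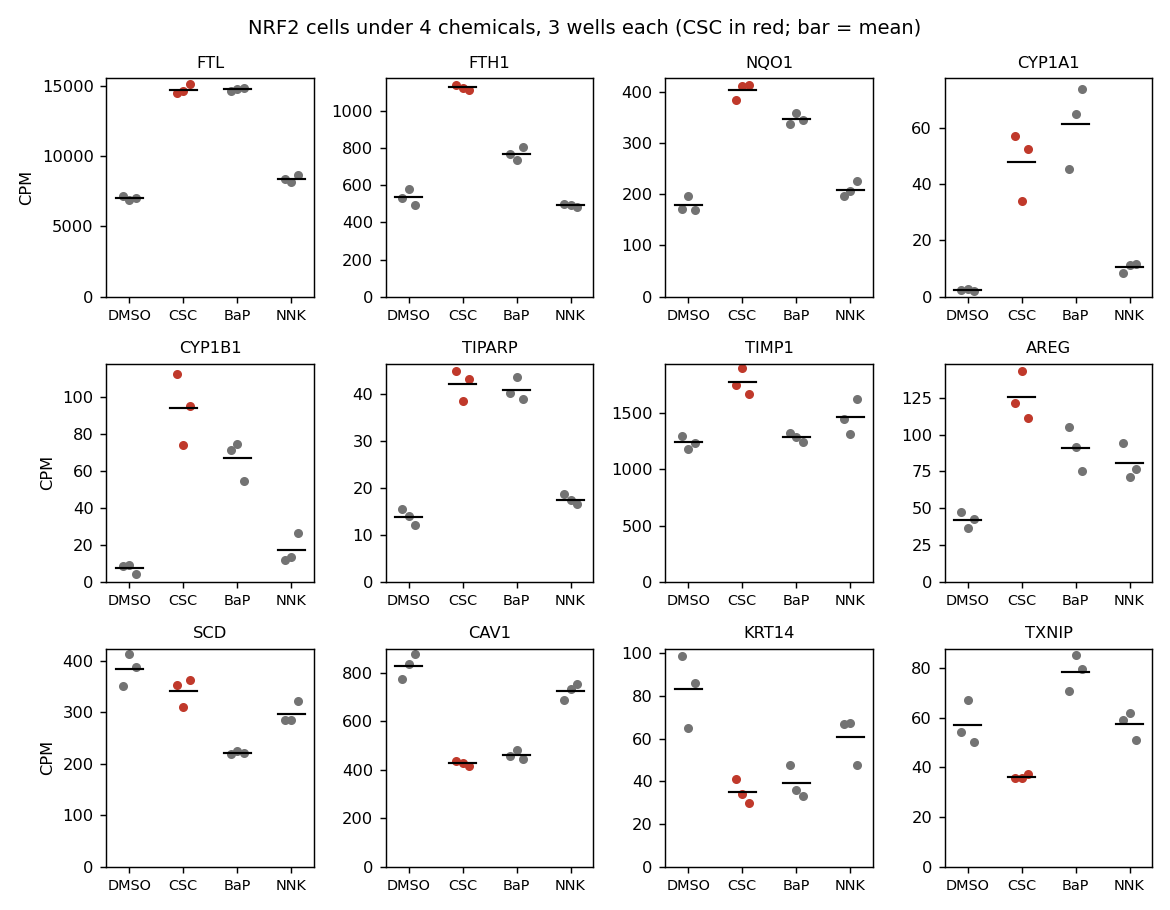
CPM (vertical axes, from 0) of 12 genes in NRF2 cells under DMSO, CSC, BaP and NNK (horizontal axes), 3 wells each with a bar at the mean and the CSC wells in red. CSC and BaP wells overlap for FTL and TIPARP and lie apart for FTH1, TIMP1, SCD and TXNIP, while NNK wells lie near those of DMSO for FTH1.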

How the data were processed

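Per the study's methods, the authors received counts already made by the sequencing centre: BWA aln 0.7.10 placed reads on RefSeq transcripts of hg19, and each UMI in a well counted once for its gene. The deposited values were raw UMI counts of 23895 symbols per well, not normalized, so each total is the depth of its well. Groups came from the sample titles. The 82 wells with a 1-digit replicate number were read, and 13 with a 2-digit number were not used. Each comparison of 3 against 3 wells was fitted on its own wells with limma 3.58.1 and voom weights in R 4.3.3, with TMM factors from edgeR 4.0.16, genes with a mean count above 1, two-sided tests, Benjamini-Hochberg adjustment over all genes tested and a threshold of 0.05. The difference between populations was an interaction term over 12 wells. With 4 residual and 52.5 prior degrees of freedom in the main comparison, the smallest adjusted p-values rest mostly on variance shared across genes. CPM values were computed on totals scaled by TMM. Named genes were NFE2L2, the ferritin chains and a fixed set of NRF2, AHR, keratin and caveolin genes, called list members, the 8 genes each way with the smallest p, the 5 each way with the largest change at a mean count of at least 10, up to 10 for the difference between populations and 5 each way against BaP, and the text gives a selection. Some genes chosen by these rules or after their values were seen are not reported here. The members and 25 gene lists were chosen with earlier results of these data known, and the ribosomal protein list was added afterwards. Alternatives were edgeR's quasi-likelihood test, DESeq2 1.42.0, other scaling and filters, a fit over all groups, the replicate number as a block and leaving out each well. Positions are from GENCODE on GRCh37, and promoters from RefSeq on GRCh38.p14 were matched by symbol only.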

Additional observations from a re-analysis of the deposited data

Results flagged for a closer look

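An interaction test by limma-voom set the responses of both populations to CSC against each other and called 26 genes. The 10 with the smallest adjusted p are given here, each as the log2 response of NRF2 cells minus that of HcRed cells. TGFBI was higher by 0.73 (SE 0.14, adjusted p = 0.00146), with every NRF2 CSC well above the DMSO wells and every HcRed CSC well below them. MT1X differed by -0.54 (SE 0.06, adjusted p = 1.52e-09), S100A8, a calcium-binding protein of stressed epithelium, by -0.48 (SE 0.09, adjusted p = 0.00146), NCL by -0.40 (SE 0.08, adjusted p = 0.00146) and MALAT1 by -0.31 (SE 0.02, adjusted p = 1.48e-20). S100A6 rose in both populations and by less in NRF2 cells, a difference of -0.23 (SE 0.03, adjusted p = 9.95e-08), and FTL likewise, at -0.17 (SE 0.03, adjusted p = 0.00211; -0.09, adjusted p = 0.359, under library totals). The ribosomal protein genes RPL26 (-0.17, SE 0.03), RPS27A (-0.17, SE 0.03) and RPL41 (-0.12, SE 0.02) fell in NRF2 cells and lay at 0.01, -0.00 and -0.00 in HcRed cells. The share of counts from ribosomal protein genes moved with them, by -1.79 percentage points in NRF2 cells and -0.945 in HcRed cells, and its part in these differences was not tested. edgeR called MALAT1, MT1X, NCL, TGFBI and S100A8 of these 10, DESeq2 called MALAT1, MT1X and TGFBI, and the fit over all groups called none.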

How the results depend on the processing

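Of 182 calls in NRF2 cells, 36 were made in all 16 alternative fits, 25 higher and 11 lower, with no ribosomal protein gene among them. FTL, FTH1, NQO1, TXN, TXNRD1, CYP1A1, CYP1B1, TIPARP, AREG, IL1A, IL1B, CAV1, KRT14, KRT19, DKK1, HMGB2, CENPF and MT1X were among the 36. No gene of the 26 for the difference between populations was called in all of its 22 fits, and 8 of 168 against BaP were in 16. Over all values computed, 1858 of 2146 kept their direction and side of the threshold, 148 lost their call, 132 moved and 8 changed sign.

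DESeq2 called 81 genes in NRF2 cells, 51 in HcRed cells, 3 for their difference and 64 for CSC against BaP, and the fit over all groups 54, 49, 0 and 10. For the difference edgeR called 6 genes, library totals 9 and the 10000 most variable genes 8. Library totals gave 102 against BaP, and no filter on low counts gave 76 in HcRed cells. Leaving out each well gave 142 to 183 genes in NRF2 cells, 78 to 112 in HcRed cells, 16 to 49 for the difference and 96 to 159 against BaP. TMM without ribosomal protein genes, chosen after seeing the data, gave 181 genes in NRF2 cells. Calls in NRF2 cells that DESeq2 did not make include KRT5, DST, S100A2, SPARC, SERPINB2, ALDH1A3, MKI67, BIRC5, AKR1C2 and GPX2. Calls missing from the fit over all groups include S100A6, S100A2, DSP, DST, CSTA, SPARC, ALDH1A3, MKI67, TUBB, STMN1 and PRDX1.

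The values that changed sign were of genes not called in the CSC response of NRF2 cells. By library totals NFE2L2 was at 0.00547 and KRT17 at 0.0181. Leaving out each well gave -0.11 to 0.0365 for NFE2L2, -0.11 to 0.0478 for KRT17, and -0.0531 to 0.51 for SRXN1. The cause of these changes was not tested.

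The replicate numbers were shared by the groups, and same-numbered wells lay in the same plate column. Deviations of same-numbered DMSO and CSC wells correlated at 0.0938, 0.00579 and 0.00676 over 4048 genes. Differently numbered wells correlated at -0.0764 to 0.0706. With 3 wells a side these values cannot settle whether the wells are paired, and the main fits used no pairing. A block for the replicate number gave 190 genes in NRF2 cells, 85 in HcRed cells, 52 for the difference and 215 against BaP. Without the block these were 182, 115, 26 and 168. With a few counts per well, genes such as HMOX1 and AHRR were not testable at this depth.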

Other observations

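Some genes called in NRF2 cells belong to none of the lists, and those given here were picked after their values were seen. PTGES, a prostaglandin E synthase, went from 15.2, 10.9 and 13.1 to 23.4, 32.1 and 26.9 CPM under CSC (log2 1.07, SE 0.24, adjusted p = 0.00376). SAT1, which acetylates polyamines, went from 337, 294 and 290 to 509, 550 and 494 CPM (log2 0.76, SE 0.07, adjusted p = 1.32e-12). The lysosomal genes CD63 at 0.44 (SE 0.10), GLA at 0.47 (SE 0.11) and IFI30 at 0.29 (SE 0.07) were higher beside CD68 at 1.14 (SE 0.23), and for each of the 4 every CSC well lay above every DMSO well. HMOX2, the constitutive heme oxygenase, rose by 0.89 (SE 0.21, adjusted p = 0.00694), where HMOX1 was too low to be tested. In the other direction, BARD1, the partner of BRCA1, went from 45.6, 31.9 and 42.1 to 26.4, 15.7 and 26.2 CPM (log2 -0.81, SE 0.20, adjusted p = 0.0149). EFEMP1, a matrix glycoprotein, went from 59.9, 48.9 and 54.5 to 29.4, 29.8 and 28.4 CPM (log2 -0.88, SE 0.17, adjusted p = 0.000335). MIR205HG, the host transcript of a microRNA of stratified epithelium, went from 361, 312 and 322 to 221, 212 and 216 CPM (log2 -0.61, SE 0.08, adjusted p = 5.23e-08). Of these, SAT1, EFEMP1 and MIR205HG were called in all 16 alternative fits.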
